A study of Homo sapiens with 18 samples.

Results

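The snoRNA host transcripts described here are the RNAs of 9 genes, GAS5, SNHG1, SNHG3, SNHG5, SNHG6, SNHG8, SNHG12, SNHG15 and SNHG16, taken by name from the 23399 genes of the expression table. They were measured by RNA-seq in U2OS cells, a human osteosarcoma line, transduced with a retrovirus that expresses MycER, a fusion of Myc with the estrogen receptor that is inactive until 4-hydroxytamoxifen (OHT) is added. All 8 groups carry MycER, and they differ in the siRNA, in OHT and in time. Cells received siRNAs against RAD21, a core subunit of the ring-shaped cohesin complex (siRAD21), or a control siRNA against Renilla luciferase (siCtrl), and at transfection either 400 nM OHT or ethanol. RNA was taken after 24 or 48 h. The siCtrl and siCtrl OHT groups had 3 libraries each at 48 h, and the 6 other groups had 2. The design asks how these transcripts respond to RAD21 silencing, to MycER activation, and to both.

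A snoRNA host gene is transcribed and spliced like other genes, but its introns carry small nucleolar RNAs (snoRNAs). Box C/D snoRNAs guide 2′-O-methylation and box H/ACA snoRNAs guide pseudouridylation, mostly of ribosomal RNA, so these genes supply parts of the machinery that makes ribosomes. The spliced host RNAs measured here encode no known long protein, and several are short-lived because translation exposes them to nonsense-mediated decay. Many host genes start with a 5′ terminal oligopyrimidine (TOP) tract, the feature through which the translation of ribosomal protein mRNAs follows growth signals. GAS5 takes its name from growth arrest, the state in which its RNA was first seen to accumulate.

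The TOP tract is the sequence feature by which the class is known, so the bases around the annotated start are shown for the 7 members that have an entry in the RefSeq promoter table (GRCh38.p14), leaving out SNHG6 and SNHG15. Each line holds 30 bases before the start and 30 bases from the start on the gene's own strand, and capitals mark a run that begins with C, goes on with at least 4 pyrimidines (C or T) and begins within 10 bases of the start.
SNHG12: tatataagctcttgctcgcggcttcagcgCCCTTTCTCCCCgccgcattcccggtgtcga
SNHG8: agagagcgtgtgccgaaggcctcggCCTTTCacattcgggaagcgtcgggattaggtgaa
SNHG5: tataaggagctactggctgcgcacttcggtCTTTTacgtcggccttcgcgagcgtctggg
SNHG16: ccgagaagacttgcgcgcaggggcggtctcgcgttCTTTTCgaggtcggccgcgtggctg
SNHG1: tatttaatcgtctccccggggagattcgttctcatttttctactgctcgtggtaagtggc
SNHG3: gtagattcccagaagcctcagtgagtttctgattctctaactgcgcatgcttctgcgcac
GAS5: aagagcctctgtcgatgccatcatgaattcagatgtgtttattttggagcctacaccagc

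These windows lie at chr1:28581844-28581903 (SNHG12), chr4:118278732-118278791 (SNHG8), chr6:85678704-85678763 (SNHG5), chr17:76557734-76557793 (SNHG16), chr11:62855856-62855915 (SNHG1), chr1:28505913-28505972 (SNHG3) and chr1:173869016-173869075 (GAS5). Such a run was found in 4 of the 7 members, and in 33.5% of all 35116 promoters of the table. It was longest in SNHG12, where 12 pyrimidines began 1 base before the annotated start. The window of GAS5 sits at the outermost annotated start of the gene, and its other annotated starts were not searched. The E-box CACGTG, a motif to which Myc binds, was in 0 of the 7 promoter windows of 250 bases before and 50 bases after the start on either strand, against 7.26% of all promoters in the table. These matches describe letters in fixed windows only.

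The labels were checked on RAD21, which ran from 66.4 to 96.9 eRPKM in siCtrl groups and from 11.1 to 18.6 in siRAD21 groups, where eRPKM counts exonic reads per kilobase of exon relative to library depth. The MYC row ran from 29.4 to 57.5 eRPKM and may hold reads of both the endogenous gene and the MycER transgene, which cannot be told apart. Recovered depths were 9647501 to 12678599 reads per library. The mesenchymal markers VIM (105 to 129 eRPKM), SPARC (60.6 to 86.4) and CDH2 (23.2 to 41.6) were present in every library, while PTPRC, a leukocyte marker, and PECAM1, an endothelial marker, were at most 0.322 and 0.767 eRPKM. COL1A1 ranged from 14.5 to 65.8, RUNX2 from 1.9 to 8.5 and the epithelial gene EPCAM from 2.56 to 12.9. The siRAD21 OHT libraries at 48 h differed by less than the sampling noise (chi-square per gene 0.983 over 12986 genes). They were counted as 1 sample in means, which carry no SD, although both entered the fits. SEs, intervals and p-values of comparisons with that group thus treat the pair as 2 samples and overstate the precision if it is 1. The siRAD21 libraries at 24 h were also close to the sampling noise (1.05 over 12359 genes) but were counted as 2 samples throughout. Pairs of the other groups ran from 1.59 to 3.96.

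All 9 members were well expressed. Their mean eRPKM over the 18 libraries ran from 28.3 (SNHG12) and 36.3 (SNHG15) through 44.5 (SNHG5), 54.3 (SNHG6), 59.4 (SNHG3), 61.4 (GAS5) and 62.4 (SNHG1) to 78.3 (SNHG16) and 105 (SNHG8). SNHG12 stood above 76.6% and SNHG8 above 99.6% of the 14993 genes tested, and all 9 passed the filter on low values. The reads behind a value ran from 237 to 3858 per member and library, and at the median count the counting error alone was 6.02% of the value for SNHG6, the member with the fewest reads, and 1.81% for SNHG16, the one with the most.

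Some limits of the measurement bear on members at high levels. PCR duplicates were removed, so for single-end reads, which the sources used here do not state, a gene can hold at most 1 read per start position and strand. No gene passed this ceiling in any library, and the members were at 10.0 to 63.4% of it, SNHG8 at 46.5 to 63.4% and SNHG16 at 29.1 to 53.2%. A fold change is compressed as a gene nears the ceiling, and values with the removal undone by calculation are given where they change a call. The library kit does not mark strand. On the annotation used here, up to 2487 exon bases of SNHG8 overlap PRSS12, 1488 of SNHG6 overlap MCMDC2, 132 of GAS5 overlap GAS5-AS1 and 8 of SNHG12 overlap TRNAU1AP, all on the opposite strand, and 242 of SNHG3 are shared with RCC1 on the same strand. These are upper limits, since the exon lengths behind the deposited values were shorter than those of the annotation (619 bases for SNHG8 and 472 for SNHG6). Reads in shared bases cannot be assigned to one gene, and the values of these 5 members are uncertain to that extent.

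On GRCh37, GAS5 lies at chr1:173827697-173838020, SNHG1 at chr11:62619450-62623425, SNHG3 at chr1:28832492-28837404, SNHG5 at chr6:86360209-86388650, SNHG6 at chr8:67832796-67838633, SNHG8 at chr4:119199858-119206471, SNHG12 at chr1:28905050-28909644, SNHG15 at chr7:45022618-45026560 and SNHG16 at chr17:74553809-74667067. GENCODE lists each as a long noncoding RNA. The values cover fewer exon bases than GENCODE lists, for instance a recovered 1012 against 12604 for SNHG5 and 1696 against 4932 for GAS5. SNHG3 and SNHG12 lie near each other on chromosome 1, on opposite strands.

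**Figure D1:**
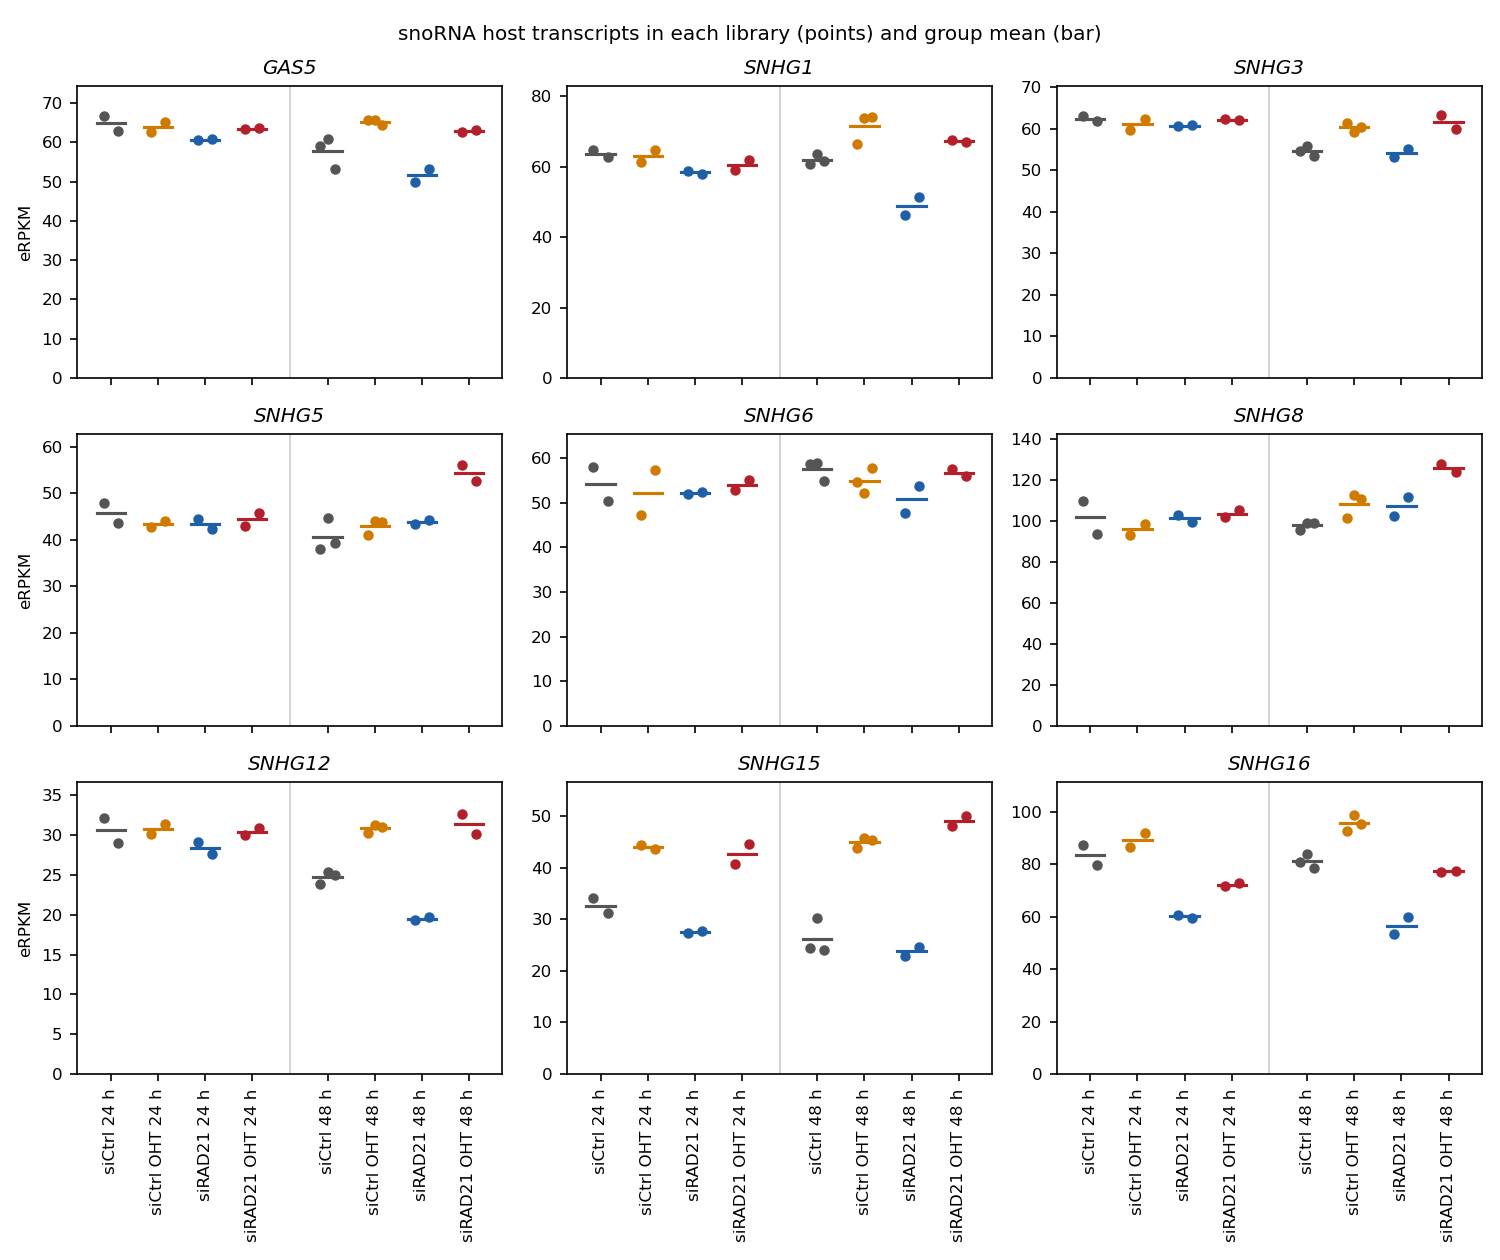
Expression of the 9 snoRNA host transcripts. Each panel is a gene, the y axis is eRPKM from 0, points are libraries and bars are group means in the 8 groups, 24 h on the left of the grey line and 48 h on the right. SNHG15 is higher in all 4 OHT groups than in the groups without OHT, SNHG16 is lower in siRAD21 groups, and SNHG12 is lowest in siRAD21 cells at 48 h.

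The members differed in how much their level varied across the groups. The highest group mean was 2.06 times the lowest for SNHG15, 1.69 times for SNHG16, 1.61 times for SNHG12 and 1.46 times for SNHG1, but only 1.15 times for SNHG3 and 1.13 times for SNHG6, with SNHG5 (1.34), SNHG8 (1.31) and GAS5 (1.27) between. The siRAD21 group at 48 h without OHT had the lowest mean of 7 of the 9 members, all but SNHG5 and SNHG8. The siRAD21 OHT group at 48 h had the highest mean of SNHG5, SNHG8, SNHG12 and SNHG15. For SNHG6 every group overlapped its neighbours in the order of levels. For SNHG3 the order broke only once, between a set of 6 groups (60.4 to 62.4 eRPKM) and the siCtrl and siRAD21 groups at 48 h without OHT (54.6 and 54.1). For SNHG15 the first break came after the siRAD21 OHT group at 48 h (49.1), the next below the other 3 OHT groups (42.7 to 45.0), and the third after the siCtrl group at 24 h (32.6), below which the last 3 groups, at 23.8 to 27.6, overlapped.

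OHT raised SNHG15, the host of the H/ACA snoRNA SNORA9, in siCtrl cells at 48 h. The siCtrl libraries held 24.5, 30.3 and 24.1 eRPKM and the siCtrl OHT libraries 43.8, 45.8 and 45.4. The 3 OHT libraries all lay above the 3 control libraries, with a gap larger than the spread within either group. The mean went from 26.3 ± 3.45 (SD, n = 3) to 45.0 ± 1.04 (SD, n = 3), a log2 fold change of 0.77 (SE 0.071, limma adjusted p = 7.24e-07 by the Benjamini-Hochberg procedure). A gene was called when its adjusted p was below 0.05 and its log2 fold change on log2(eRPKM + 0.5) was past 0.5 in either direction. SNHG15 was the only member called, 1 of 9, and 17.9% of all genes tested were called in this comparison (7.78% higher). In bulk RNA, a change in the number of cells that express a gene and a change in RNA per cell cannot be told apart.

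The other members changed by less than the fold threshold with OHT in siCtrl cells at 48 h. With any fold change allowed, 7 of 9 had an adjusted p below 0.05, against 53.3% of all genes, and all 7 were higher, against 26.1% of all genes. With quantile normalization 5 of 9 passed, of which SNHG6 was lower (-0.16, limma adjusted p = 0.0251), while GAS5 (0.08, adjusted p = 0.0759), SNHG8 (0.06, 0.0661) and SNHG3 (0.05, 0.263) did not. SNHG8 also missed in the fit with the replicate block (limma adjusted p = 0.0541) and with voom (0.0631), where 6 of 9 passed. SNHG12, which carries SNORD99 and 3 H/ACA snoRNAs, held 23.9, 25.3 and 25.1 eRPKM without and 30.3, 31.2 and 31.0 with OHT. These groups did not overlap, and the difference was 0.31 on the log2 scale (SE 0.045, limma adjusted p = 4.96e-05, Benjamini-Hochberg). SNHG16, which carries the SNORD1 family, held 81.1, 84.1 and 78.7 without and 92.7, 99.1 and 95.5 with OHT, a difference of 0.23 (limma adjusted p = 0.000942). SNHG1, host of SNORD25 to SNORD31, had a difference of 0.20 and GAS5, host of SNORD74 to SNORD81, one of 0.18. SNHG8, host of SNORA24, and SNHG3, host of the U17 RNAs SNORA73A and SNORA73B, had differences of 0.15 and 0.14. SNHG5, host of SNORD50A and SNORD50B, and SNHG6, host of SNORD87, overlapped between the groups, and their differences were 0.08 (95% interval -0.05 to 0.21) and -0.07 (-0.22 to 0.09). The median over the 9 members was 0.18, against -0.01 over all genes tested, and with quantile normalization the value of SNHG5 turned below 0. Beside these changes, EPCAM was higher (1.22) and COL1A1 (-0.91) and RUNX2 (-0.84) were lower with OHT at 48 h on the log2 scale, and their part in the members' values was not tested.

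At 24 h SNHG15 was again the member with the largest value. The siCtrl libraries held 34.1 and 31.2 eRPKM and the OHT libraries 44.5 and 43.6, which did not overlap. The log2 fold change was 0.43 (SE 0.087, limma adjusted p = 0.00234, Benjamini-Hochberg), short of the fold threshold, so 0 of 9 members were called by limma, against 8.78% of all genes, and 1 of 9 had an unadjusted p below 0.05. Limma on recovered reads (voom) gave the same counts of members called in this and every other comparison. The 8 other members lay between -0.08 (SNHG8) and 0.09 (SNHG16), with adjusted p-values of 0.286 or more by limma. Of the 9 members, 1 had libraries that did not overlap, against 60.1% of all genes. SNHG12, which differed at 48 h, held 32.2 and 29.0 without and 30.2 and 31.5 eRPKM with OHT at 24 h, a log2 fold change of 0.01 (95% interval -0.11 to 0.13).

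The OHT effect in siCtrl cells was then compared between the times as a difference of differences, in which 1.77% of all genes were called. Limma called 0 of 9 members. An unadjusted p below 0.05 was found for 6 of 9, and the share of all genes at that p was not computed. SNHG12 had the only adjusted p below 0.05, with a difference of 0.30 on the log2 scale (SE 0.071, limma adjusted p = 0.0314, Benjamini-Hochberg), against 4.17% of all genes at any fold change. It missed with the replicate block (limma adjusted p = 0.0524) and passed in 4 of the 10 fits that left out 1 library. The siCtrl OHT mean of SNHG12 was 30.8 eRPKM at 24 h and 30.9 at 48 h, while its siCtrl mean was 30.6 and 24.8. The difference thus follows the siCtrl level without OHT, for which time and preparation cannot be told apart. For SNHG15 the difference was 0.34 (SE 0.112, limma adjusted p = 0.107).

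OHT in RAD21-depleted cells raised SNHG15 at both times and SNHG12 at 48 h. At 48 h SNHG15 was 23.0 and 24.6 eRPKM in siRAD21 and 48.1 and 50.1 in siRAD21 OHT libraries. The OHT libraries lay above both siRAD21 libraries by far more than the spread within either group, and the fold on the fitted scale was 2.04 (log2 1.03, SE 0.087, limma adjusted p = 2.62e-07, Benjamini-Hochberg). SNHG12 was 19.3 and 19.7 in siRAD21 and 32.7 and 30.2 in siRAD21 OHT libraries, again with no overlap (log2 fold change 0.68, SE 0.055, limma adjusted p = 1.97e-07). These 2 of 9 members were called higher, against 28.6% of all genes called and 12.4% called higher. With the siRAD21 OHT libraries averaged into 1, both stayed called (limma adjusted p = 8.19e-06 for SNHG15 and 3.87e-06 for SNHG12).

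SNHG1 and SNHG16 were just short of the fold threshold in the same comparison, whose SEs and p-values count the siRAD21 OHT pair as 2 samples. With that pair averaged into 1, their log2 fold changes stayed at 0.46 and 0.45. SNHG1 held 46.4 and 51.5 eRPKM in siRAD21 and 67.5 and 67.1 in siRAD21 OHT libraries (log2 fold change 0.46, SE 0.058, limma adjusted p = 1.32e-05, Benjamini-Hochberg). SNHG16 held 53.3 and 59.8 in siRAD21 and 77.1 and 77.6 in siRAD21 OHT libraries (0.45, SE 0.059, limma adjusted p = 1.64e-05). Both passed the threshold when the removal of duplicates was undone (0.52 and 0.53) and when siRAD21 replicate 2 at 48 h was left out (0.53 and 0.53), which made 4 of 9 members called. SNHG5 (0.31), GAS5 (0.28), SNHG8 (0.23) and SNHG3 (0.19) had limma adjusted p-values of 0.0115 or less, and SNHG6 did not pass at any fold change (0.16, 95% interval -0.03 to 0.35). In all, 8 of 9 had an adjusted p below 0.05 at any fold change, against 60.4% of all genes, all of them higher, against 30.5%. With quantile normalization 6 of 9 passed, since SNHG8 (0.04, limma adjusted p = 0.317) and SNHG3 (0.01, adjusted p = 0.883) did not. The libraries of 9 of 9 members did not overlap, against 82.6% of all genes. The median was 0.31 over the members and -0.02 over all genes, and all 9 values were above 0, although that of SNHG6 turned to -0.01 with quantile normalization. EPCAM (1.05), COL1A1 (-1.84) and RUNX2 (-1.33) also changed in this comparison, and their part was not tested.

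**Figure D2:**
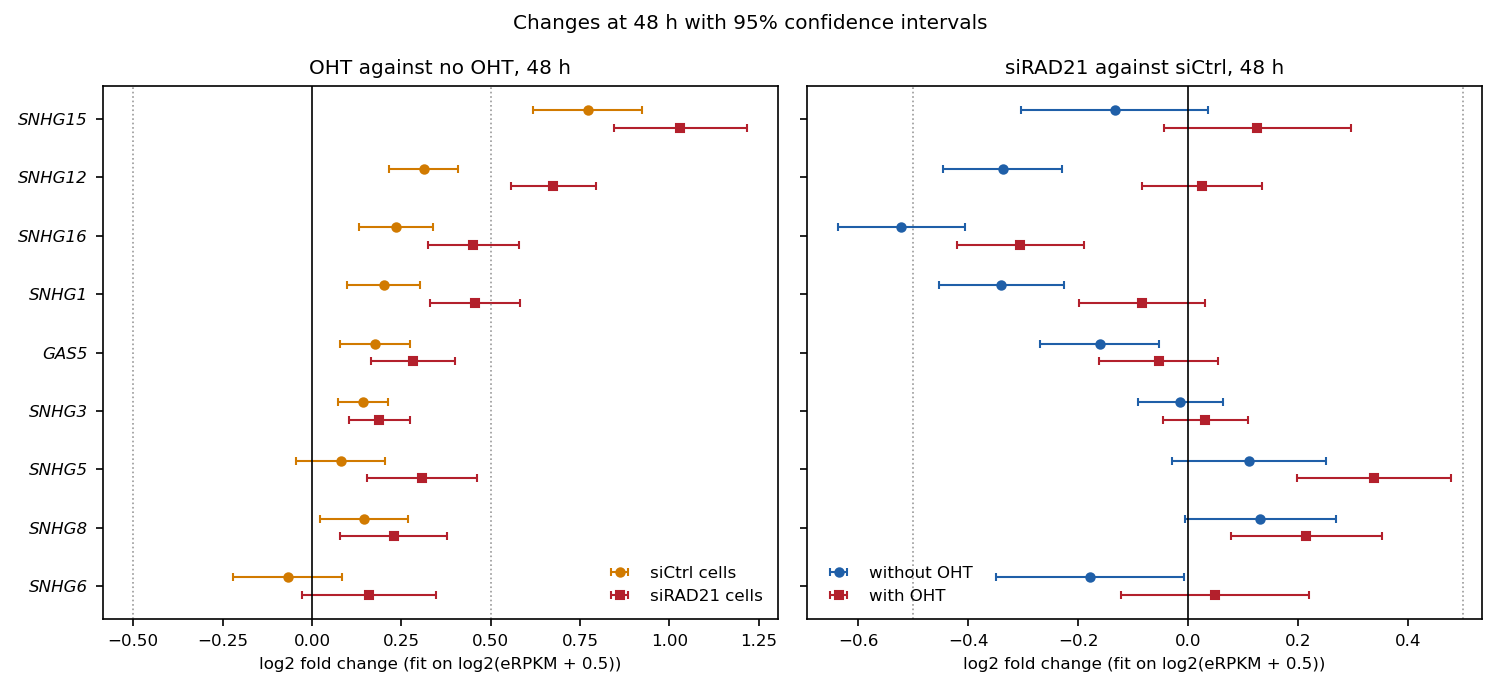
Log2 fold changes at 48 h, with 95% confidence intervals from the fit over 18 libraries. On the left is OHT against no OHT in siCtrl cells (circles) and siRAD21 cells (squares), and on the right siRAD21 against siCtrl without OHT (circles) and with OHT (squares), with dotted lines at the fold threshold of 0.5. SNHG15 lies past the threshold with OHT in both cell types, SNHG12 only in siRAD21 cells, and SNHG16 lies below 0 with siRAD21 both without and with OHT.

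At 24 h, SNHG15 held 27.4 and 27.8 eRPKM in siRAD21 and 40.7 and 44.7 in siRAD21 OHT libraries. The groups did not overlap, and the log2 fold change of 0.62 (SE 0.087, limma adjusted p = 0.000102, Benjamini-Hochberg) made it the 1 member of 9 called, against 11.9% of all genes. SNHG16 held 60.9 and 59.6 in siRAD21 and 71.9 and 72.7 in siRAD21 OHT libraries, a difference of 0.26 that fell short of the fold threshold (limma adjusted p = 0.00346). The other 7 members lay between 0.03 and 0.10 on the log2 scale, with limma adjusted p-values of 0.185 or more. All 9 values were above 0 as deposited, but 6 of them turned below 0 with quantile normalization, so no direction is given for those members at 24 h.

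RAD21 silencing lowered SNHG16 at 48 h. The siCtrl libraries held 81.1, 84.1 and 78.7 eRPKM and the siRAD21 libraries 53.3 and 59.8. The siRAD21 libraries both lay below all siCtrl libraries, and the log2 fold change was -0.52 (SE 0.054, limma adjusted p = 1.72e-06, Benjamini-Hochberg). SNHG16 was the 1 member of 9 called, against 23.7% of all genes, of which 11.2% of all genes were lower. The value sits close to the threshold. It was -0.38 with quantile normalization, -0.50 (just short of the threshold) without siCtrl replicate 2 and -0.44 without siRAD21 replicate 1, and then 0 members were called, while it was -0.64 with the removal of duplicates undone. Under each of these settings the limma adjusted p of SNHG16 stayed below 0.05.

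Values of several kinds were seen among the other members at 48 h with siRAD21. SNHG1, SNHG12 and GAS5 were lower at any fold change. SNHG1 held 60.8, 63.7 and 61.6 eRPKM in siCtrl and 46.4 and 51.5 in siRAD21 libraries (log2 fold change -0.34, SE 0.053, limma adjusted p = 8.53e-05, Benjamini-Hochberg), and SNHG12 held 23.9, 25.3 and 25.1 against 19.3 and 19.7 (-0.34, SE 0.050, limma adjusted p = 5.7e-05). GAS5 held 59.1, 61.0 and 53.4 in siCtrl and 49.9 and 53.3 in siRAD21 libraries, so the groups came within 0.1 eRPKM of each other (-0.16, limma adjusted p = 0.0141). SNHG15, SNHG3 and SNHG6 did not pass at any fold change, at -0.13 (95% interval -0.30 to 0.04), -0.01 (-0.09 to 0.06) and -0.18 (-0.35 to -0.01). SNHG5 and SNHG8 were on the other side of 0, at 0.11 (-0.03 to 0.25) and 0.13 (-0.01 to 0.27), and did not pass either. Thus 4 of 9 members had an adjusted p below 0.05 at any fold change, against 57.7% of all genes, and all 4 were lower, against 30.5% of all genes. With quantile normalization GAS5 did not pass (-0.05, limma adjusted p = 0.258), SNHG5 (0.19) and SNHG8 (0.27) passed as higher, and 3 members passed as lower. GAS5 also missed without siCtrl replicate 2 and without siRAD21 replicate 1.

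At 24 h of silencing, limma called 0 of 9 members, against 8.43% of all genes, and 2 of 9 had an unadjusted p below 0.05. SNHG16 held 87.6 and 79.7 eRPKM in siCtrl and 60.9 and 59.6 in siRAD21 libraries, which did not overlap. Its log2 fold change of -0.47 (SE 0.059, limma adjusted p = 5.16e-05, Benjamini-Hochberg) was short of the fold threshold, and it passed with the removal of duplicates undone (-0.61) and without siCtrl replicate 2 at 24 h (-0.54). SNHG15 was -0.24 (SE 0.087, limma adjusted p = 0.0609), with 34.1 and 31.2 in siCtrl and 27.4 and 27.8 in siRAD21 libraries. The 7 others lay between -0.12 (SNHG1) and -0.002 (SNHG8), with limma adjusted p-values of 0.138 or more. All 9 values were below 0, but those of SNHG3, SNHG6 and SNHG8 turned above 0 with quantile normalization.

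The effect of silencing at 48 h was compared with that at 24 h in the same fit, where limma called 10.7% of all genes and 0 of 9 members, with 2 of 9 at an unadjusted p below 0.05. For SNHG12 the effect was more negative at 48 h by 0.23 on the log2 scale (difference -0.23, SE 0.075, limma adjusted p = 0.0393, Benjamini-Hochberg), and it was the only member with an adjusted p below 0.05, against 21.6% of all genes at any fold change. It missed with the replicate block (limma adjusted p = 0.0731) and passed in 3 of the 9 fits that left out 1 library. For SNHG1 the difference was -0.22 (SE 0.079, limma adjusted p = 0.0668). For SNHG16, already low at 24 h, it was -0.05 (95% interval -0.22 to 0.12).

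With silencing in the presence of OHT, limma called 0 of 9 members at 24 h, against 6.47% of all genes, and 0 of 9 at 48 h, against 16.2%. Unadjusted p-values were below 0.05 for 1 and 3 of 9. SNHG16 was nonetheless lower at both times at any fold change. At 24 h it held 86.5 and 91.8 eRPKM in siCtrl OHT and 71.9 and 72.7 in siRAD21 OHT libraries (log2 fold change -0.30, SE 0.059, limma adjusted p = 0.00243, Benjamini-Hochberg). At 48 h it held 92.7, 99.1 and 95.5 in siCtrl OHT and 77.1 and 77.6 in siRAD21 OHT libraries (-0.31, SE 0.054, limma adjusted p = 0.000363). At both times no siRAD21 OHT library reached the lowest siCtrl OHT library.

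SNHG5 and SNHG8 lay above 0 at 48 h. SNHG5 held 41.0, 43.9 and 43.7 eRPKM in siCtrl OHT and 56.1 and 52.6 in siRAD21 OHT libraries at 48 h, the highest values of this gene in any library (log2 fold change 0.34, SE 0.065, limma adjusted p = 0.000728, Benjamini-Hochberg). SNHG8 held 101.7, 112.9 and 110.6 against 127.8 and 123.7, also its highest values (0.22, SE 0.064, limma adjusted p = 0.0133). Both were short of the fold threshold. The pair of siRAD21 OHT libraries counts as 1 sample, but these SEs and p-values were fitted with it as 2. In this comparison 3 of 9 members had an adjusted p below 0.05 at any fold change, against 45.2% of all genes. With the siRAD21 OHT libraries averaged into 1, SNHG8 did not pass (limma adjusted p = 0.0663) and 2 of 9 did. EPCAM (-0.66, limma adjusted p = 0.0017) and RUNX2 (-0.85, limma adjusted p = 0.000194) were called lower in the same comparison, and their part was not tested. For the 6 others the intervals held 0, and SNHG12 stood at 30.3, 31.2 and 31.0 in siCtrl OHT against 32.7 and 30.2 in siRAD21 OHT libraries (0.03, 95% interval -0.08 to 0.13).

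The siRNA by OHT interaction, the log2 change with OHT in siRAD21 cells minus that in siCtrl cells, tests whether silencing alters the response to OHT. At 48 h limma called 0 of 9 members, against 7.3% of all genes, since no value passed the fold threshold. SNHG12 (0.36, SE 0.071, limma adjusted p = 0.00359, Benjamini-Hochberg) and SNHG1 (0.26, SE 0.075, limma adjusted p = 0.0316) had adjusted p-values below 0.05, 2 of 9 members against 17.3% of all genes at any fold change. SNHG12 passed in all 10 fits that left out 1 library and SNHG1 in 5 of them. Over 12 other settings SNHG12 passed in 12 and SNHG1 in 8. SNHG1 missed with median centring, with no variance trend, with only the groups compared and with the siRAD21 OHT libraries averaged into 1. In SNHG12, OHT raised the siRAD21 level from 19.5 to 31.4 eRPKM and the siCtrl level stood at 24.8 without and 30.9 with OHT. In SNHG1 the siRAD21 mean was 49.0 without and 67.3 with OHT and the siCtrl mean 62.0 without and 71.4 with OHT. The levels of both genes thus lay closer together with OHT than without.

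Unadjusted p-values were below 0.05 for 5 of 9 members at 48 h, and the share of all genes at that p was not computed. The median interaction was 0.23 over the members and 0.02 over all genes, and all 9 values were above 0, from 0.05 (SNHG3) to 0.36 (SNHG12), except that SNHG3 and SNHG8 turned to -0.04 and -0.02 with quantile normalization. At 24 h limma called 0 of 9 members and 0% of all genes, and 0 of 9 members had an unadjusted p below 0.05. The values at 24 h ran from 0.06 (SNHG3) to 0.19 (SNHG15), and those of GAS5, SNHG1 and SNHG3 turned below 0 with quantile normalization. The interaction uses the same libraries as the separate OHT comparisons above.

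Between 24 and 48 h in siCtrl cells without OHT, limma called 0 of 9 members, against 12.4% of all genes. At any fold change, 5 of 9 were lower with an adjusted and an unadjusted p below 0.05, against 27.2% of all genes lower. SNHG15 went from 34.1 and 31.2 to 24.5, 30.3 and 24.1 eRPKM (log2 fold change -0.31, limma adjusted p = 0.00548, Benjamini-Hochberg). SNHG12 went from 32.2 and 29.0 to 23.9, 25.3 and 25.1 (-0.30, limma adjusted p = 0.000332), and both lay below their 24 h libraries throughout. SNHG3 (-0.19), SNHG5 (-0.17) and GAS5 (-0.17) had smaller changes, the libraries of SNHG5 overlapping. The labels do not say whether the 24 and 48 h libraries were prepared together, so time and preparation cannot be told apart. Centred on the median of each library, SNHG1, SNHG8 and SNHG16 turned above 0 here, while those 5 members stayed below 0. Only SNHG12 (-0.21) and SNHG15 (-0.23) then had a limma adjusted p below 0.05, and SNHG3 (-0.10), SNHG5 (-0.09) and GAS5 (-0.08) did not. Without siCtrl replicate 1 at 24 h, 2 of 9 passed as well.

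Within the spans of the 9 genes RefSeq annotates 34 snoRNAs, of which 30 are rows of the table. Of these, 14 are listed at 0 in every library, among them 6 of the 8 rows within SNHG1, 3 of the 10 within GAS5, 3 of the 4 within SNHG12, and SNORA9, the snoRNA of SNHG15. An exact 0 can be a failed estimate, so only the listing is given. The other 16 ranged from 14.9 to 142 eRPKM and all 16 were tested. They were at 8.14 to 84.9% of the ceiling set by duplicate removal, with SNORD81 highest at 41.9 to 84.9%. Fold changes near the ceiling are compressed. Neither values with the removal undone nor counting errors are given for these rows. Whether each snoRNA lies in an intron and on the strand of its host was not checked. Up to 65 bases of SNORD78 are shared with exons of GAS5. Reads of these rows may come from the snoRNA or from the host RNA, unspliced or spliced, which cannot be told apart here.

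SNORD28 and SNORD30, both within SNHG1 and named after their values were seen, were the 2 of 16 called lower with siRAD21 at 48 h, against 11.2% of all genes. SNORD30 held 70.4, 85.6 and 68.9 eRPKM in siCtrl and 48.4 and 50.4 in siRAD21 libraries (log2 fold change -0.59, SE 0.111, limma adjusted p = 0.000424, Benjamini-Hochberg). SNORD28 held 86.2, 119.9 and 89.0 against 61.1 and 49.7 (-0.81, SE 0.130, limma adjusted p = 0.0001). Neither overlapped between the groups, and the host SNHG1 stood at -0.34 in the same comparison. With OHT in siRAD21 cells at 48 h, 7 of the 16 were called higher, against 12.4% of all genes, and the largest values were those of SNORD30 (0.86) and SNORD28 (0.81). SNORD99, the only tested snoRNA of SNHG12, was not among the 7, and SNHG15 had no tested snoRNA. With OHT in siCtrl cells limma called 0 of 16 at 48 h (median 0.17) and 0 at 24 h, against 17.9% and 8.78% of all genes. An unadjusted p below 0.05 was found for 9 and 1 of the 16, and the share of all genes at that p was not computed. Between 24 and 48 h in siCtrl cells 4 of 16 were called lower, against 6.91% of all genes, namely SNORD99 (-0.88) within SNHG12, SNORD1A (-0.60) within SNHG16, SNORD50B (-0.53) within SNHG5 and SNORD81 (-0.52) within GAS5.

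Genes of the same pathway were read from lists of the partners and relatives of these hosts. Of the 8 core proteins that bind snoRNAs to form snoRNPs, 1 was called with OHT in siCtrl cells at 48 h (median 0.38), where 7.78% of all genes were called higher. It was GAR1, an H/ACA core protein (11.2 to 16.3 eRPKM, log2 fold change 0.54, limma adjusted p = 0.00312, Benjamini-Hochberg). In siRAD21 cells 6 of 8 were called higher with OHT at 48 h (median 0.60), where 12.4% of all genes were. With siRAD21 at 48 h limma called 0 of 8, against 23.7% of all genes. An unadjusted p below 0.05 was found for 5 of the 8, and the median of the 8 was -0.23. The 12 factors that assemble snoRNPs had 6 called higher with OHT in siCtrl cells at 48 h (median 0.46). Their largest value was that of NOLC1, a nucleolar and Cajal body chaperone of snoRNPs (46.0 to 78.7 eRPKM, 0.77, limma adjusted p = 3.28e-09). In siRAD21 cells 6 of 12 were called higher as well (median 0.48). With siRAD21 at 48 h 1 of 12 was called lower, against 11.2% of all genes. It was RPAP3, a cochaperone of the R2TP complex (16.7 to 10.7 eRPKM, -0.62, limma adjusted p = 3.05e-06).

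Other host genes gave mixed counts. Of 12 further noncoding hosts tested, OHT in siCtrl cells at 48 h called 1 higher, SNHG17 (12.9 to 24.6 eRPKM, log2 fold change 0.91, limma adjusted p = 2.92e-09, Benjamini-Hochberg), and 1 lower, SNHG18 (8.65 to 5.32 eRPKM, -0.65, limma adjusted p = 0.000339), with a median of 0.37. In siRAD21 cells OHT called 4 higher and 1 lower of the 12 at 48 h (median 0.39). Of all genes, 17.9% were called with OHT in siCtrl cells at 48 h and 28.6% in siRAD21 cells. Of 17 protein-coding hosts that are not ribosomal proteins, 1 was called with OHT in siCtrl cells, PPAN, a ribosome biogenesis factor (0.52), and 4 with OHT in siRAD21 cells (median 0.34). NOP56 and DKC1 are in this list and among the snoRNP proteins. Of the 15 hosts that encode ribosomal proteins limma called 0 in every comparison. With OHT in siRAD21 cells at 48 h, however, 15 of 15 had an unadjusted p below 0.05 and their median was 0.21. By the stricter rule of an adjusted p below 0.05 at any fold change, 60.4% of all genes passed there, a share that the unadjusted count cannot be set against. With siRAD21 at 48 h limma called 0 in each of these 3 lists, against 23.7% of all genes. An unadjusted p below 0.05 was found for 5 of 12, 8 of 17 and 9 of 15. By the stricter rule of an adjusted p below 0.05 at any fold change, 57.7% of all genes passed, a share that these unadjusted counts cannot be set against.

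The 15 factors of nonsense-mediated decay, the pathway that degrades several host RNAs, had 0 called by limma with OHT in siCtrl cells at 48 h. Of all genes, 17.9% were called there. The median of the list was 0.12, with 8 values above 0 and 7 below. An unadjusted p below 0.05 was found for 11 of 15, and the share of all genes at that p was not computed. With siRAD21 at 48 h, XRN1, the 5′ to 3′ exonuclease that degrades decay products, was higher (6.88 to 10.3 eRPKM, log2 fold change 0.54, limma adjusted p = 0.000593, Benjamini-Hochberg) and CASC3, an exon junction complex protein, was lower (38.6 to 26.9 eRPKM, -0.51, limma adjusted p = 5.03e-07). With OHT in siRAD21 cells, EIF4A3 (0.69) was higher and SMG6 (-0.61) and XRN1 (-0.54) were lower, of which EIF4A3 and SMG6 are named after their values were seen. The median of the list was then 0.05, against -0.02 for all genes.

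The patterns over the 8 group means were compared as a description, by Pearson's r on the log2 scale among 10897 other genes. These points share libraries and depth. The r of a closest gene is the highest among all these genes over 8 points, so it is high by selection. The gene most like SNHG15 was PWP1, a nucleolar protein gene (r = 0.998 over 8 groups), and for SNHG16 and SNHG12 it was RPE and NAE1 (0.992 and 0.990). For GAS5 and SNHG3 the closest rows were snoRNAs, SNORD30 (0.991), which lies within SNHG1, and SNORD19 (0.988). SNHG8 was closest to LRRC75A-AS1 (0.960), another noncoding RNA, SNHG5 to CYP2R1 (0.942) and SNHG6 to SEPW1 (0.931). Among the 36 pairs of members, r ran from -0.09 to 0.98 with a median of 0.49, and 34 pairs were above 0. The share for pairs of other genes was not computed.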

How the data were processed

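Total RNA of 18 samples was depleted of ribosomal RNA and sequenced without strand information. The authors trimmed low-quality bases, aligned reads to hg19 with TopHat2 (2.0.8 per the submitters' processing notes, which also name featureCounts 1.4.5 and SAMtools), removed PCR duplicates and deposited 1 table of eRPKM, an exonic RPKM, for 23399 genes; the exon annotation is not given in the sources used here. The authors' own tests were not used. Groups and replicate numbers came from sample titles.

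The 9 members, the gene lists and the tests were chosen with earlier results of these data known. Depths and whole reads were recovered from the steps of the values for 22022 genes (tolerance 0.05 reads), with 9647501 to 12678599 reads per library. The 14993 genes whose eRPKM averaged 1 or more entered a limma 3.58.1 model (R 4.3.3) of log2(eRPKM + 0.5), which gave each of the 8 groups its own mean, used all 18 libraries and let the variance follow expression. P-values were adjusted by the Benjamini-Hochberg procedure over all genes in each comparison. The share of all genes at an unadjusted p below 0.05 was not computed, so counts at that p have no background beside them. Fold changes are on this log2 scale, which slightly understates those of low genes. The study describes 2 biological replicates, whereas the siCtrl and siCtrl OHT groups at 48 h hold 3 libraries. No siRAD21 group holds a replicate 3. The labels do not say whether replicates were separate cultures, so p-values cover the spread between libraries only. Intervals are 95% and from the fit. The labels do not say whether same-numbered libraries were paired. Their deviations from group means correlated at 0.258, 0.13 and 0.157 for siCtrl and siCtrl OHT at 48 h. In other comparisons they correlated at -0.134 to 0.146, a range that overlaps and does not settle pairing. The main fit holds no block.

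Alternatives were pseudocounts, filters, median centring, quantile normalization, only the groups compared, a replicate block, no variance trend, no fold threshold, voom on the recovered reads, averaging the siRAD21 OHT 48 h libraries and leaving out each library. Undoing duplicate removal (reads n out of 2 starts per exon base) was added after seeing the data. The genes named beside the members were RAD21 and MYC, the called genes of each list with the largest rise and fall at 48 h with siRAD21 and with OHT in siCtrl cells, and the closest gene to each member, except where a gene is not reported here. Gene positions are from GENCODE on GRCh37. Sequences and snoRNA neighbours are from RefSeq (GRCh38.p14) and were matched by symbol. Tables were made with pandas 2.3.3 and numpy 2.4.6 under Python 3.11.15, and figures with matplotlib 3.10.9.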

Additional observations from a re-analysis of the deposited data

Results flagged for a closer look

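Differences between groups under the same contrast passed limma's adjusted p of 0.05 for SNHG12 and SNHG1. The change of SNHG12 with OHT differed between siRAD21 and siCtrl cells at 48 h by 0.36 on the log2 scale (limma adjusted p = 0.00359, 95% interval 0.21 to 0.52), and that of SNHG1 by 0.26 (limma adjusted p = 0.0316, 0.09 to 0.42). The change of SNHG12 with siRAD21 differed between 48 and 24 h by -0.23 (limma adjusted p = 0.0393, -0.39 to -0.07). Its change with OHT in siCtrl cells differed between 48 and 24 h by 0.30 (limma adjusted p = 0.0314, 0.15 to 0.45). There the siCtrl OHT means were 30.8 and 30.9 eRPKM at 24 and 48 h, and the siCtrl means 30.6 and 24.8. With the replicate block the last 2 missed (limma adjusted p = 0.0731 and 0.0524). Over the fits that left out 1 library, the 4 differences passed in 10 of 10, 5 of 10, 3 of 9 and 4 of 10. Over 12 other settings they passed an adjusted p of 0.05 in 12, 8, 7 and 10. The difference of SNHG1 missed, among others, with the siRAD21 OHT libraries averaged into 1. None of the 4 differences passed the fold threshold of 0.5. The first 3 share the siRAD21 libraries at 48 h, in which SNHG12 had its lowest values, 19.3 and 19.7 eRPKM, and SNHG1 its lowest, 46.4 and 51.5 eRPKM.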

How the results depend on the processing

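Of 247 counts of members called under the alternatives, 228 stayed as reported and 19 moved, and of 1271 log2 fold changes of members, computed for the 67 results followed here, 1205 kept direction and side of the threshold, 3 lost the call, 37 gained one and 26 turned in direction. With no fold change threshold the members called were 1, 4, 1, 7, 2, 8, 1 and 3 of 9 for siRAD21 at 24 and 48 h, OHT in siCtrl cells at 24 and 48 h, OHT in siRAD21 cells at 24 and 48 h and siRAD21 with OHT at 24 and 48 h, 2 for the interaction at 48 h, 1 and 1 for the differences between times and 5 for siCtrl at 48 against 24 h. Undoing duplicate removal gave 1 for siRAD21 at 24 h (SNHG16) and 4 for OHT in siRAD21 cells at 48 h, and quantile normalization gave 0 for siRAD21 at 48 h. Leaving out single libraries gave 0 to 1 members for siRAD21 at 24 h (1 without siCtrl replicate 2), 0 to 1 for siRAD21 at 48 h (0 without siCtrl replicate 2 or siRAD21 replicate 1) and 2 to 4 for OHT in siRAD21 cells at 48 h (4 without siRAD21 replicate 2). A replicate block treats same-numbered libraries of a time as paired. It left the counts at 0, 1, 0, 1, 1, 2, 0 and 0 in the first 8 comparisons and changed no call past the fold threshold. At any fold change it left SNHG8 with OHT at 48 h (limma adjusted p = 0.0541) and SNHG12 in both differences between times (0.0731 and 0.0524) short of an adjusted p of 0.05. Averaging the siRAD21 OHT 48 h libraries left 2 members called with OHT in siRAD21 cells.

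Over all 117 pairs of member and comparison, 20 turned with quantile normalization, 4 with median centring, 2 with duplicates undone and 1 with voom. Outside the results followed here these were GAS5, SNHG1, SNHG3, SNHG6 and SNHG8 with OHT in siRAD21 cells at 24 h (-0.0517, -0.0470, -0.0783, -0.0422 and -0.0764 with quantile normalization), SNHG3 and SNHG6 with siRAD21 at 24 h (0.0382 and 0.0130), GAS5 and SNHG1 in the interaction at 24 h (-0.00533 and -0.00269), SNHG12 with OHT (-0.0209) and with siRAD21 and OHT (0.000427) at 24 h, SNHG16 in the siRAD21 effect at 48 minus 24 h (0.0651), SNHG1, SNHG8 and SNHG16 in siCtrl at 48 against 24 h (0.0488, 0.0341 and 0.0466 with median centring) and SNHG8 with OHT in siRAD21 cells at 24 h (-0.0306 with duplicates undone).

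In the results followed here the values that turned were small. SNHG8 with siRAD21 at 24 h was 0.0525 with quantile normalization, 0.00421 with voom and 0.0484 with duplicates undone, and -0.117 to 0.114 without single libraries. With quantile normalization, SNHG3 with siRAD21 at 48 h was 0.097, SNHG5 with OHT at 48 h -0.0202, SNHG5 and SNHG6 with OHT in siRAD21 cells -0.0599 (24 h) and -0.00822 (48 h), and the interaction was -0.0110 for SNHG3 at 24 h and -0.0410 and -0.0209 for SNHG3 and SNHG8 at 48 h. SNHG6 turned to 0.0112 with median centring in the OHT effect at 48 minus 24 h. Without single libraries, SNHG3 with siRAD21 at 48 h ran from -0.0383 to 0.0108, SNHG8 with OHT at 24 h from -0.196 to 0.035, SNHG5 with OHT in siRAD21 cells at 24 h from -0.0161 to 0.0774, SNHG3 and SNHG12 with siRAD21 and OHT at 48 h from -0.00733 to 0.0707 and from -0.0306 to 0.0814, SNHG6 in the OHT effect at 48 minus 24 h from -0.149 to 0.127 and SNHG6 in siCtrl at 48 against 24 h from -0.0118 to 0.184. The cause was not tested. Members hold 237 to 3858 reads per library, and with 2 or 3 libraries a group the number of libraries limits the precision.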
